A study of Mus musculus with 2 samples.

Results

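The cells described here were 1635 cells of a mouse pancreatic cancer line in which transcripts of Krt14, a basal-cell keratin, and Sprr1a, a small proline-rich protein of the cornified envelope, were counted at least 2 times in all. They were 18.3% (95% exact interval 17.5 to 19.1%) of 8936 cells called clone-like B, among 21361 cells that passed the cell filter and 22178 barcodes in the library. A cell was called clone-like B where the summed unique molecular identifiers (UMIs, 1 per captured transcript) of S100a7a, Rgs20, Hs6st2, Ccbe1, Ctse and Mal were at least 2 and at least 3 times those of Pde10a, Plcb1, Galnt18, Arhgap15 and Ceacam1. The reverse gave 7816 clone-like A cells, and 4609 cells fell in neither class. To pass the filter a barcode needed 2000 or more UMIs, 1000 or more detected genes and no more than 15% of UMIs from mitochondrial genes. The Krt14/Sprr1a cells were compared with 5533 clone-like B cells in which neither transcript was counted, called zero cells, and 1768 B cells with a single such UMI lay between the groups.

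All cells came from 1 droplet library of the line KPCY 6419c5, labelled as pancreatic ductal adenocarcinoma. KPCY tumours arise in mice in which Cre acts in the pancreas, and their cells carry a yellow fluorescent reporter. Clones 76 and 84, each grown from 1 sorted cell after transfection with the adenine base editor Cas12a-ABE, carried the BASELINE recording system and were mixed in equal numbers after 19 days of editing. No cell-to-clone map was used, so A and B are classes of expression, not clones, and every cell compared shares line, editor, culture time and library. There were no replicate libraries, cells are not replicates, and no difference below has a test. All intervals are 95% exact intervals and cover counting error only.

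Squamous epithelium is built from basal cells with stratified keratins such as Krt5 and Krt14, which move upward, leave the cell cycle and assemble a cornified envelope. Involucrin, loricrin and the small proline-rich proteins are cross-linked by transglutaminases beneath the membrane to form that envelope. Pancreatic ductal cells instead carry the simple keratins Krt7, Krt8, Krt18 and Krt19. Some pancreatic tumours show squamous genes beside ductal ones, often with the transcription factor Trp63.

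The promoters of the 2 genes that chose the cells are shown because those genes define the cells. Both are RefSeq sequences of build GRCm38.p6, 250 bases before the annotated start, on the minus strand: Krt14 at chr11:100206031-100206280 and Sprr1a at chr3:92485882-92486131. Capitals mark matches to TGANTCA, a letter pattern bound by AP-1 factors (Fos and Jun proteins), which reads the same on both strands.
Krt14: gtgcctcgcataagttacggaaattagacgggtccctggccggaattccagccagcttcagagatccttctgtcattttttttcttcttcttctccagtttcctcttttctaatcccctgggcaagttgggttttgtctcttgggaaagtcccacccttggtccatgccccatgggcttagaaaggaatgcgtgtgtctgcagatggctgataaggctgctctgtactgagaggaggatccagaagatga
Sprr1a: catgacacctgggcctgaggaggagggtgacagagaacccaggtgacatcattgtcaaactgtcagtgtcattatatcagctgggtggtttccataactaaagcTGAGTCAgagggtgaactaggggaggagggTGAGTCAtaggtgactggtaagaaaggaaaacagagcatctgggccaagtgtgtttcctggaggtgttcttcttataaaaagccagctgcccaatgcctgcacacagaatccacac
The Sprr1a window held 2 matches, whose first bases lie 146 and 116 bases before the start, and the Krt14 window held 0. Of 32851 promoter windows of this length, 6.75% held at least 1 match and 0.338% held 2 or more. A match describes the letters and is not a measured binding site.

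Membership rested on few UMIs in most cells. Of the Krt14/Sprr1a cells, 1043 (63.8%) had a sum of 2 or 3, 376 had 4 to 7 and 216 (13.2%) had 8 or more. Just inside the threshold lay 694 cells with a sum of 2, and just outside it 1768 cells with a sum of 1. Krt14 alone was counted in 555 members (33.9%), Sprr1a alone in 538 (32.9%) and both in 542 (33.1%, 30.9 to 35.5%). Krt14 reached 27 UMIs in a cell and Sprr1a 211. Cells with a sum of 8 or more held 55.5% of the 6456 Sprr1a UMIs of the B cells but 13.3% of the 3674 Krt14 UMIs. A sum that high was made up mostly of Sprr1a, so the contrast follows in part from the choice of cells. Among B cells with Krt14, 24.7% had Sprr1a, against 17.9% of those without, and 13.2% against 9.85% after every cell was thinned to 2000 UMIs. These values chose the cells and are given as description.

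Transcripts of both genes were rarer in clone-like A cells, which are given for comparison and not as a measure of background counts. Krt14 was counted in 24.6% of B cells and 0.819% of A cells, and Sprr1a in 19.6% and 2.88%, at median depths of 5440.5 and 4699.5 UMIs. Thinned to 2000 UMIs, the shares were 11.05% and 0.269% for Krt14 and 10.2% and 1.497% for Sprr1a. A sum of 2 or more occurred in 79 A cells (1.01%), of which 1 held 102 Sprr1a UMIs. The members were deeper than the zero cells, with medians of 6260 and 5202 UMIs, and the rule reads counts before thinning, so depth enters it. Median mitochondrial shares were 1.92 and 1.89%, and Scrublet marked 1.96 and 2.26% of the cells as doublets. Every ratio below was therefore taken between UMI sums of cells thinned to 2000 UMIs, and levels are UMIs per 1000000 thinned UMIs (CPM).

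The markers matched a squamous label only in part. Of the other keratins of stratified epithelium, Krt5, Krt6a, Krt6b, Krt1 and Krt4 had 0 UMIs in members and in zero cells. Krt10, a suprabasal keratin, was present at 31.2 and 23.2 CPM, as were Krt23 and Krt80, given below. Krt15 and Krt17 had 1 UMI in members, Krt16 had 4, and the squamous regulator Trp63 had 1 in members and 3 in zero cells. Krt13, another keratin of stratified epithelium, was also counted, but under 20 CPM in both groups. The simple keratins dominated. As 3' tags give 1 count per molecule whatever its length, Krt18 at 3336 CPM, Krt19 at 1966 CPM, Krt8 at 1747 CPM and Krt7 at 1423 CPM stood far above Krt14, at 246 CPM in these cells. The members are thus named below by the 2 genes that chose them, and not as squamous cells. Markers of other cell types were low: 9 immune genes summed to 3.36 CPM in members and 0.633 CPM in zero cells, 7 endothelial genes to 11.6 and 8.86 CPM, 8 fibroblast genes to 0.917 and 1.08 CPM, 8 acinar genes to 5.51 and 4.61 CPM, and 7 endocrine genes to 0 in both.

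Most other cornified-envelope genes with any transcript had a higher level in the members, at low counts. Of 36 genes of that list besides Sprr1a, 18 had no UMI in either group, and 17 of the other 18 had a higher CPM in members. Over all 17930 features with a UMI in either group, 48.1% had a higher CPM in members. The ratio interval lay above 1 for 10 of the 18 genes and below 1 for 0, and it lay above 1 for 6.56% of all those features, most of which have other counts than these genes. Evpl, or envoplakin, went the other way, at 4.89 and 6.51 CPM, a ratio of 0.752 (0.408 to 1.31). Evpl and the following 7 genes lie under the level asked of tested genes and were chosen after their values were seen. Sprr2h had 36 UMIs in members and 17 in zero cells, a CPM ratio of 7.17 (3.92 to 13.6). Sprr2k had 34 and 14, a ratio of 8.22 (4.30 to 16.6). Sbsn (suprabasin, a protein of suprabasal epidermis) had 45 and 43, a ratio of 3.54 (2.28 to 5.51). The next 2 rest on very few transcripts. Sprr1b had 10 and 3 UMIs, with a ratio of 11.3 (2.90 to 63.8), and Cnfn (cornifelin) had 10 and 2, with 16.9 (3.61 to 159). Involucrin, Ivl, stood at 15.6 and 8.86 CPM, a ratio of 1.76 (1.23 to 2.49), and loricrin, Lor, at 4.59 and 1.72 CPM, a ratio of 2.67 (1.26 to 5.55). These transcripts were in few cells: after thinning, Sprr2h was counted in 2.02% of members and 0.289% of zero cells, and Sprr1b in 7 member cells. Sprr2h stood at 1.54 CPM in zero cells, 1.80 CPM with Krt14 alone, 15.8 CPM with Sprr1a alone and 39.4 CPM at a sum of 8 or more. Sbsn stood at 3.89, 7.21, 13.9 and 46.3 CPM in the same groups. Sprr genes form a family of close copies, so reads may be split among them.

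Genes were compared where members or zero cells reached 20 CPM, without the genes that chose the cells. Of these 6178 genes, 92 (1.49%) were at least 1.5-fold higher in the members and 33 (0.534%) at least 1.5-fold lower. The median log2 ratio over all of them was -0.02, and the outermost percentiles lay at -0.51 and 0.67. The 15 genes with the highest ratios were Tff1, Psca, Dusp1, Nppb, Prss23, Aldh1a1, Tnip3, Gm41331, Prl2c2, Akap12, Sfn, Nupr1, Hpgd, Adgrb2 and Cyp1b1, with ratios from 4.96 down to 2.21. Of these, 13 were under 20 CPM in zero cells and entered the comparison through the members alone: Nupr1 and Hpgd are the exceptions. The genes that chose B cells are given as description only. Mal stood at 106 and 43.6 CPM, a ratio of 2.43 (2.11 to 2.79), and Ctse had a ratio of 1.29 (1.14 to 1.46). S100a7a, Rgs20, Hs6st2 and Ccbe1 had ratios from 0.927 to 1.11, with intervals that held 1.

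Tff1, a secreted trefoil peptide of gastric surface mucous cells, stood at 32.7 CPM in members and 6.60 CPM in zero cells, a ratio of 4.96 (3.65 to 6.77). Over cells with a sum of 0, 1, 2 to 3, 4 to 7 and 8 or more, Tff1 stood at 6.60, 11.9, 10.1, 42.6 and 125 CPM. The intervals at sums of 4 to 7 and 8 or more (29.1 to 60.1 and 93.9 to 163 CPM) lie above those of all lower steps. At a sum of 1 the interval (8.56 to 16.1 CPM) also lies above that of the zero cells (5.17 to 8.29 CPM). Its 107 UMIs came from 31 member cells, 1.90% of members against 0.759% of zero cells, and 5 cells held 41.1% of them. A Poisson interval over UMIs is too narrow for a transcript so unevenly spread among cells.

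Psca, a surface antigen of gastric, bladder and prostate epithelium, stood at 36.7 and 8.77 CPM, a ratio of 4.19 (3.18 to 5.53). Its levels over the same steps were 8.77, 13.01, 25.9, 19.9 and 118 CPM, so the steps of 2 to 3 and 4 to 7 did not differ beyond their intervals. Psca was counted in 5.75% of members, 1.70% of zero cells and 0.0896% of A cells after thinning. Prss23, a secreted serine protease, stood at 32.1 and 10.7 CPM, a ratio of 3.01 (2.29 to 3.95). It went from 10.7 and 10.5 CPM at sums of 0 and 1 to 62.5 CPM at 8 or more. Sfn, or 14-3-3 sigma, a protein of stratified epithelia and a p53 target, stood at 30.0 and 11.8 CPM, a ratio of 2.53 (1.93 to 3.31). Unlike Prss23, Sfn was already at 24.3 CPM in cells with 1 such UMI.

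Dusp1, an immediate early phosphatase that switches off MAP kinases, stood at 25.4 and 8.13 CPM, a ratio of 3.12 (2.29 to 4.25), and reached 55.6 CPM at 8 or more. Nupr1, a small stress-induced chromatin protein, stood at 94.5 and 40.3 CPM, a ratio of 2.34 (2.02 to 2.72). Its levels over the steps were 40.3, 63.9, 67.6, 117 and 185 CPM. Of these 15 genes, Nupr1 was the one with a higher level in A cells, at 198 CPM, than in the members. Hpgd, which inactivates prostaglandins, stood at 53.2 and 22.8 CPM, a ratio of 2.34 (1.91 to 2.85). Aldh1a1, a retinaldehyde dehydrogenase, had a ratio of 2.97 (2.20 to 4.01), and Cyp1b1, a cytochrome P450, had 2.21 (1.64 to 2.97). Nppb, the natriuretic peptide precursor B, had 3.09 (2.28 to 4.20), and Akap12, a scaffold for protein kinase A, had 2.56 (1.86 to 3.52). Apart from Tff1, Psca and Nupr1, no cell gave more than 5 UMIs of any of the 15 among the members.

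**Figure D1:**
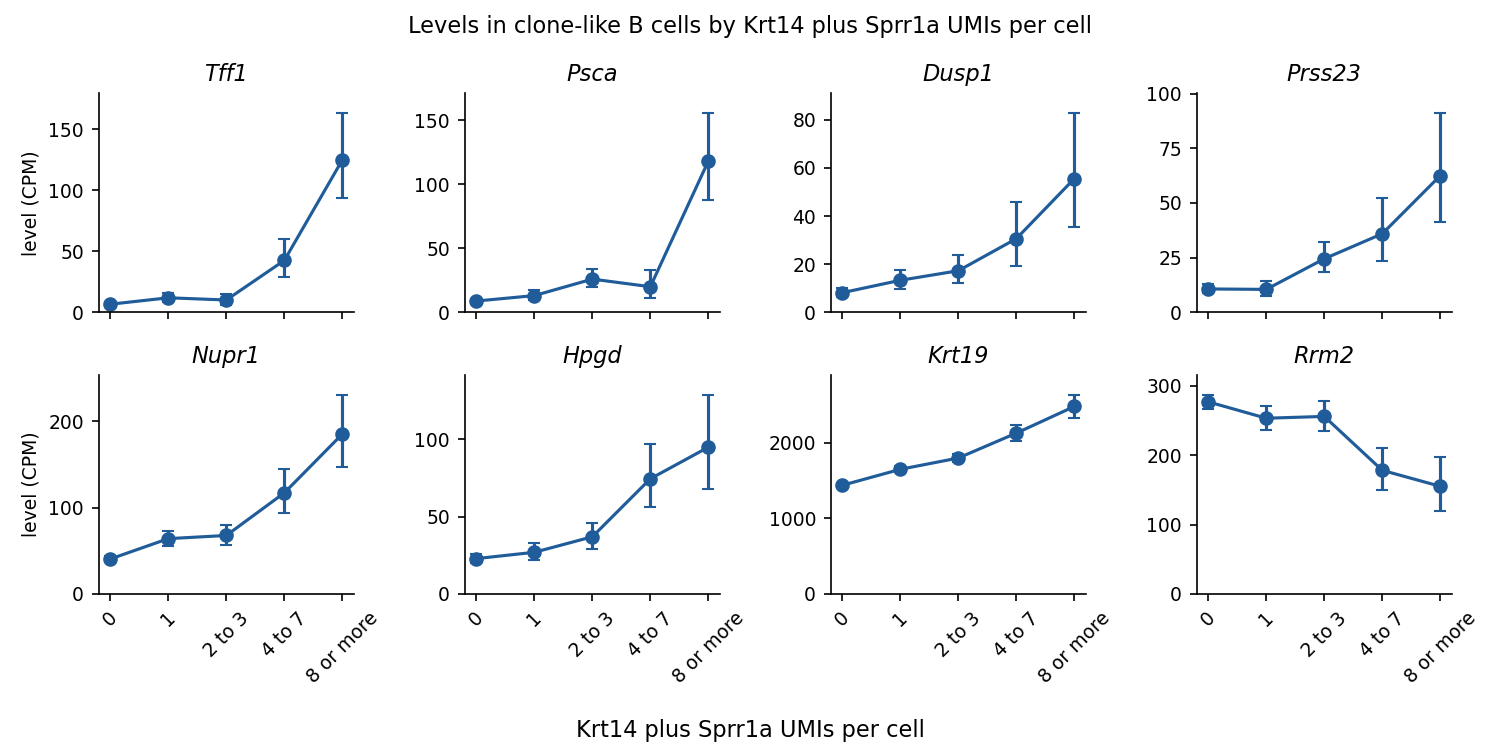
Levels (CPM, linear axes from 0) of 8 genes in clone-like B cells grouped by the sum of Krt14 and Sprr1a UMIs per cell, in cells thinned to 2000 UMIs; points are levels of the summed cells and bars are 95% exact Poisson intervals. Tff1 and Psca stand apart at sums of 8 or more, at 125 and 118 CPM, whereas Krt19 is higher at each step and Rrm2 is lower at the last 2. Nupr1 also rises, but its intervals overlap between sums of 1 and of 2 to 3. The make-up of the sum changes along the steps: at 8 or more, Sprr1a stood at 2377 CPM and Krt14 at 356 CPM, and at 2 to 3 they stood at 176 and 220 CPM.

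The same 15 genes were compared between members in which only 1 of the chosen genes was counted. Prss23 was higher with Sprr1a alone than with Krt14 alone, at 36.2 and 12.6 CPM, a ratio of 2.87 (1.53 to 5.73). Gm41331 (2.65, 1.40 to 5.32), Aldh1a1 (2.54, 1.36 to 4.99), Akap12 (2.51, 1.31 to 5.05), Dusp1 (2.13, 1.12 to 4.25), Nupr1 (2.08, 1.53 to 2.86) and Psca (1.73, 1.03 to 2.97) had ratios whose intervals also lay above 1. In cells with Krt14 alone, Prss23 at 12.6 CPM (6.90 to 21.2) and Aldh1a1 at 13.5 CPM (7.56 to 22.3) overlapped the zero cells, at 10.7 and 8.86 CPM. The remaining 8 genes had intervals that held 1. Sfn stood at 26.0 and 27.03 CPM, a ratio of 0.963 (0.554 to 1.67), and Prl2c2, a prolactin family member, at 19.5 and 19.8 CPM, a ratio of 0.985 (0.515 to 1.88), each above its level in zero cells (11.8 and 8.40 CPM). Prl2c2 has near-identical copies, so its count is uncertain. Tff1 was highest where both genes were counted, at 58.1 CPM (44.7 to 74.4), against 24.2 and 16.2 CPM with Sprr1a or Krt14 alone. The members with both genes had the higher median depth, 6664 UMIs against 6133 and 6052, before thinning.

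**Figure D2:**
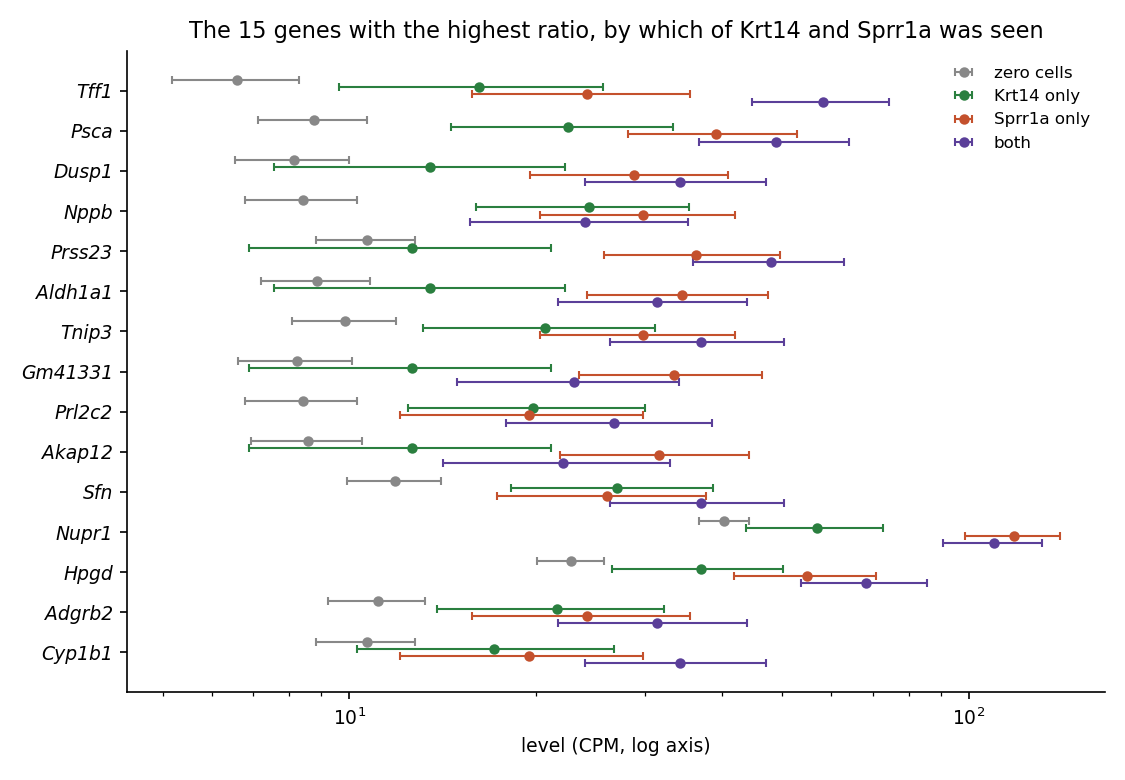
Levels (CPM, log axis) of the 15 genes with the highest ratio in zero cells, in members with Krt14 alone, with Sprr1a alone and with both, with 95% exact Poisson intervals as bars. For Prss23, Aldh1a1 and Gm41331 the points with Krt14 alone lie near the zero cells, and for Sfn, Nppb and Prl2c2 they lie with the other members.

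Gene lists written for this tissue were then read against the median of all genes, -0.02. Over all tested genes, 46.9% had ratios above 1, and no list below is called particular from its count. Epithelial junction and keratin genes lay mostly above 1, and of the tested genes in the lists of this paragraph only Tff1, given above, passed 1.5-fold. All 5 tested desmosome genes had ratios above 1, with a list median of 0.29 and a summed level of 470 against 387 CPM. Of these, Dsp, the plaque protein desmoplakin, stood at 166 and 127 CPM, a ratio of 1.31 (1.18 to 1.45). Among simple epithelial and ductal genes, 10 of 13 were above 1, with a median of 0.23, and Tff1 reached 20 CPM in the members only. Krt19 stood at 1966 and 1438 CPM, a ratio of 1.37 (1.33 to 1.41). Over the steps it stood at 1438, 1650.5, 1800.1, 2130.3 and 2484 CPM, with no overlap between neighbouring intervals. Cstb, a cystatin that inhibits cathepsins and joins the cornified envelope, stood at 575 and 421 CPM, a ratio of 1.37 (1.29 to 1.44), and made up most of the cornified-envelope sum of 746 against 524 CPM. Of 3 tested stratified keratins, Krt23 (157 and 122 CPM) and Krt10 (31.2 and 23.2 CPM) were above 1 and Krt80 (47.1 and 48.1 CPM) was not. Of 17 squamous transcription factors, 3 reached the level asked of tested genes: Klf5 had a ratio of 0.950 (0.832 to 1.08), Klf4 1.103 (0.961 to 1.26) and Elf3 1.25 (0.987 to 1.56), and each interval held 1.

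Of 10 AP-1 genes with a UMI, 8 were above 1. The 7 that were tested include Atf3 and Maff, which reached 20 CPM in the members only, so the choice of tested genes leans upward, and their median of 0.32 is a description. Fosl2, at 16.2 and 19.2 CPM, and Fosb, with a ratio of 0.725 (0.246 to 1.79), were not tested and lay below 1. The tested genes ran from Fosl1 at 1.04 (0.908 to 1.20) to Atf3, at 23.9 and 14.4 CPM, a ratio of 1.66 (1.25 to 2.19). Junb stood at 286 and 235 CPM, a ratio of 1.22 (1.13 to 1.31). Of 5 tested immediate early genes, Dusp1 and Klf2 (33.0 and 19.9 CPM, 1.66, 1.31 to 2.10) passed 1.5-fold, and both reached 20 CPM in the members only. The Atf3 ratio was 0.994 where members were called on Krt14 alone and came under 1.5 in 3 further alternatives. Klf2 was at 1.47 after thinning to 3000 UMIs. With zero cells weighted to the members' chromosome 5 share, described below, Atf3 was at 1.26 and Klf2 at 1.40. The EGF family had a median of -0.07, and 2 of its 6 tested genes were above 1. Of its ligands, Areg (amphiregulin) stood at 368 and 452 CPM, a ratio of 0.814 (0.764 to 0.867), and Btc (betacellulin) at 30.3 and 40.9 CPM, a ratio of 0.740 (0.589 to 0.921). The receptor Egfr was higher, at 109 and 86.1 CPM, a ratio of 1.27 (1.12 to 1.43). A UMI of Areg, Btc or Cftr was seen in 53.8% of members and 60.4% of zero cells after thinning, and in 84.6% and 85.8% before it.

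Few single list genes passed 1.5-fold. Ndrg1, a stress and hypoxia response gene, stood at 32.4 and 16.9 CPM, a ratio of 1.92 (1.497 to 2.45), and reached 20 CPM in the members only. Cdkn1a, the cyclin-dependent kinase inhibitor p21, stood at 37.3 and 20.97 CPM, a ratio of 1.78 (1.42 to 2.23), and was counted in 6.67% of members, 3.98% of zero cells and 0.473% of A cells after thinning. Serpinb5 (maspin, a serpin of stratified and glandular epithelium) stood at 37.3 and 22.95 CPM, a ratio of 1.63 (1.30 to 2.02). Gsta4, a glutathione transferase, stood at 234 and 148 CPM, a ratio of 1.58 (1.45 to 1.73). Ecm1, an extracellular matrix protein of skin, stood at 38.5 and 24.8 CPM, a ratio of 1.56 (1.25 to 1.93). Serpinb5 was at 1.35 with a stricter call of B cells and Ecm1 at 1.39 with members called on Krt14 alone. Gsta4 was at 1.47 with members called on Krt14 alone and at 1.48 after thinning to 3000 UMIs. Under chromosome 5 weighting Gsta4 and Ecm1 were both at 1.45. No tested gene of any list was 1.5-fold lower.

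The other lists are given by their counts and medians, to be read beside the 46.9% of all tested genes above 1. Above 1 were all 6 tested mesenchymal genes (median 0.28), 1 of which reached 20 CPM in the members only, all 7 p53 targets (0.16), 4 of 5 calpain, annexin and protease genes (0.21), 9 of 12 wound and migrating-front genes (0.19) and 7 of 8 S100 genes (0.19). So were 9 of 12 genes of cholesterol synthesis (0.15), 6 of 9 of hemidesmosomes and basement membrane (0.12), 2 of 2 interferon-stimulated genes (0.12) and 9 of 11 YAP and TEAD targets (0.10). The medians were 0.09 for hypoxia and glycolysis, 0.07 for antioxidant NRF2 genes, -0.05 for Notch genes and -0.09 for G2 and mitosis. In the first 2 of these, Ndrg1 and Hmox1 (28.4 and 19.1 CPM) reached 20 CPM in the members only, and 1 Notch gene reached it in the zero cells only. Within these lists the calcium-binding protein S100a4 stood at 1002 and 738 CPM, a ratio of 1.36 (1.30 to 1.41), and Ccn2, a matricellular YAP target, at 278 and 207 CPM, a ratio of 1.34 (1.24 to 1.45).

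**Figure D3:**
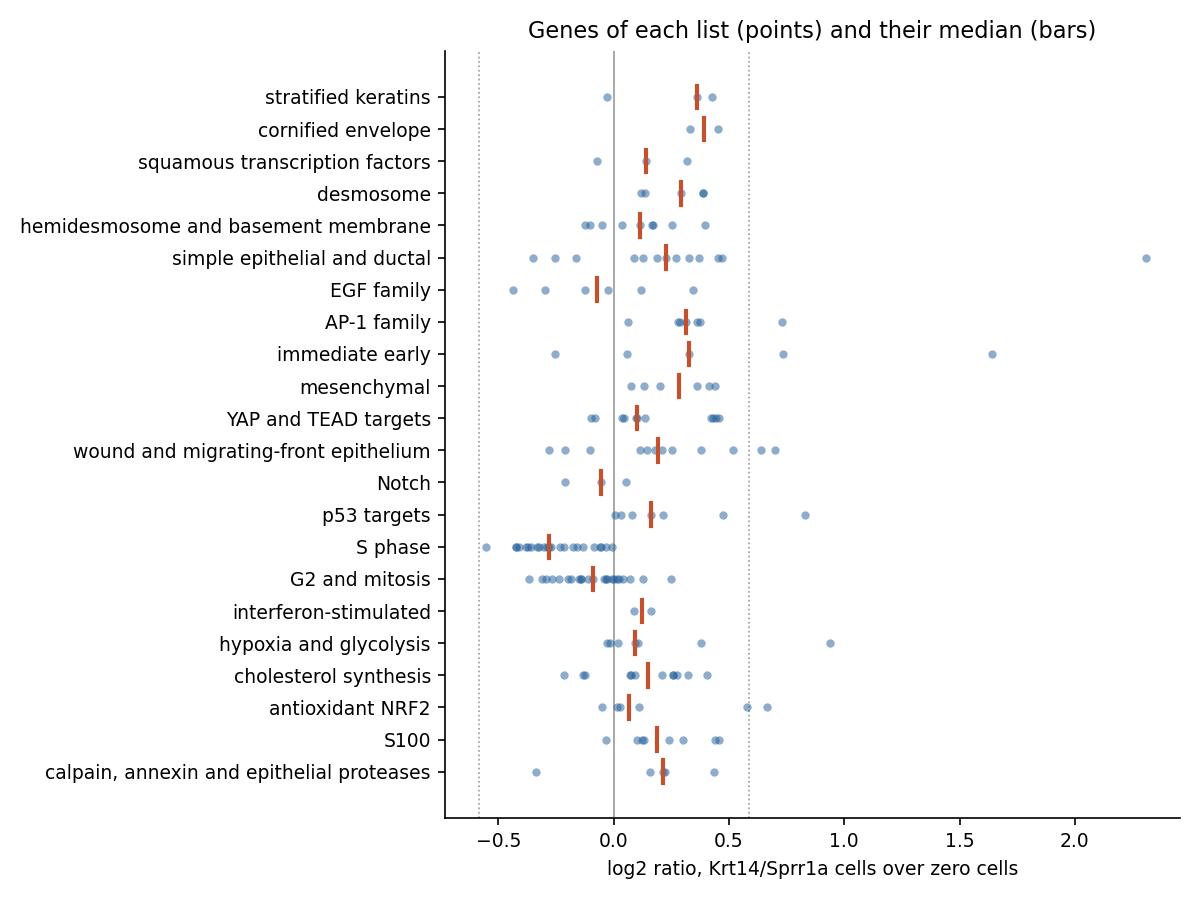
Log2 ratio of Krt14/Sprr1a cells over zero cells for the genes of 22 lists that reached 20 CPM in either group (points) and the median of each list (bars); dotted lines mark 1.5-fold. The points of the S-phase list, each at 20 CPM or more in both groups, all lie below 0. Few points of any list lie past a dotted line.

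S-phase genes were lower in the members. All 23 tested genes of that list had ratios below 1, where 53.1% of all tested genes did, with a median of -0.28 and a summed level of 1698 against 2008 CPM. Rrm2, a subunit of ribonucleotide reductase, stood at 225 and 277 CPM, a ratio of 0.811 (0.747 to 0.880). Mcm4, of the replicative helicase, stood at 140 and 163 CPM, a ratio of 0.862 (0.776 to 0.955). Phase calls on thinned cells put 15.8% of members in S (14.1 to 17.7%) and 22.9% of zero cells (21.8 to 24.0%). The share in G1 was 39.1% (36.7 to 41.5%) against 31.7% (30.4 to 32.9%), and in G2/M 45.1% against 45.4%. At a thinning depth of 3000 UMIs the shares in S were 22.1% and 31.5% and those in G1 26.8% and 17.5%, so the levels of the calls depend on depth. At each of these depths members had the lower share in S and the higher share in G1. The G2/M shares changed order, at 51.1% of members and 50.9% of zero cells at 3000 UMIs.

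Members with Krt14 alone and with Sprr1a alone differed more in the summed level of mitotic genes than of S-phase genes (1771 and 1722 CPM). The G2 and mitosis list summed to 3588 CPM with Krt14 alone, 2704 CPM with Sprr1a alone and 3228 CPM in zero cells, so the 2 kinds of members lay on opposite sides of the zero cells. Top2a, the topoisomerase of mitotic chromosomes, stood at 661 CPM (614 to 711) and 456 CPM (417 to 499) in the first 2 groups, a ratio of Sprr1a alone over Krt14 alone of 0.690 (0.614 to 0.775). Of the S-phase list, Rrm2 stood at 291 and 174 CPM, a ratio of 0.597 (0.496 to 0.717). Rrm2 does not stand for that list: Mcm4 had a ratio of 0.849 (0.679 to 1.06) and Hells 1.07 (0.854 to 1.34), and both intervals held 1. Phase calls gave G2/M to 54.1% (49.8 to 58.3%) of cells with Krt14 alone and 38.5% (34.3 to 42.7%) with Sprr1a alone, and G1 to 31.4% and 43.7%. At a sum of 8 or more, 52.8% (45.9 to 59.6%) were called G1 and 12.04% S. Hes1, a Notch target, was higher with Sprr1a alone, at 74.3 CPM against 42.3 CPM with Krt14 alone, a ratio of 1.76 (1.21 to 2.57).

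The 12 genes with the lowest ratios were Gpn1, Slc25a32, Rfc5, Uba6, Plut, Enoph1, H3c3, Ankle2, Onecut3, Prkd3, Slc4a2 and Suds3, with ratios from 0.564 to 0.621. Of these, 9 were under 20 CPM in the members and entered through the zero cells alone. Of these, 8 lie on chromosome 5: Slc25a32, H3c3, Onecut3 and Prkd3 do not. Suds3, a subunit of Sin3 histone deacetylase complexes, had the most UMIs of the 12, at 46.8 and 75.4 CPM, a ratio of 0.621 (0.519 to 0.738). Rfc5, a subunit of the clamp loader of DNA replication, stood at 23.2 and 39.2 CPM, a ratio of 0.593 (0.458 to 0.758). Areg and Btc also lie on this chromosome. H3c3 is 1 of many near-identical histone genes, and its count is uncertain. These genes were picked as the lowest of 1 random thinning. At 3000 UMIs 2 of the 12 were past 1.5-fold, and without thinning 1 was, and all 12 had ratios below 1 in both.

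Chromosome 5 as a whole stood apart. Of the 33 genes at least 1.5-fold lower, 20 lie on it. Its 411 tested genes had a median log2 ratio of -0.25, and 361 of them (87.8%) were below 1, against 50.6% of the genes not on it. The medians of the other 19 chromosomes ran from -0.02 to 0.03. The median of chromosome 5 was -0.23 with Krt14 alone, -0.17 with Sprr1a alone, -0.33 with both and -0.14 in B cells with 1 UMI. With its tested genes split by position into 10 bins of like size, the first 7 bins had medians from -0.34 to -0.25, and the last 3 had -0.18, -0.05 and -0.17. Of the tested genes on other chromosomes, 13 (0.225%) were at least 1.5-fold lower.

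**Figure D4:**
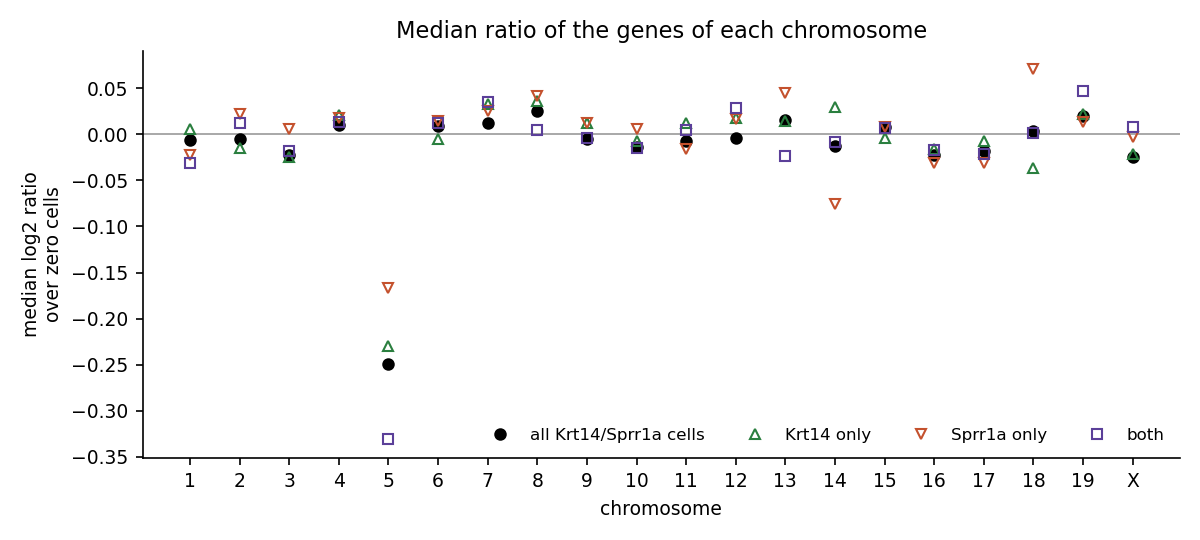
Median log2 ratio over zero cells of the tested genes of each chromosome, for all Krt14/Sprr1a cells (filled circles) and for members with Krt14 alone, Sprr1a alone or both (open symbols). Chromosome 5 lies at -0.25 for all members and is the lowest in each subgroup.

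Cell by cell, the share of UMIs from 1815 chromosome 5 genes of low or middle level (under 300 CPM) had a median of 5.62% in members, 6.49% in zero cells and 6.75% in A cells. In members its distribution had separate peaks, in the bins from 3.25, 5.5 and 7.25%, and in zero cells in those from 3, 5.5 and 7.5%. A share below 4% was found in 15.1% of members (13.4 to 16.9%), 4.17% of zero cells (3.66 to 4.74%) and 0.525% of A cells. By subgroup it was found in 8.65% of cells with Krt14 alone, 17.5% with Sprr1a alone, 19.4% with both and 22.7% at a sum of 8 or more. Read the other way, the members were 40.8% of B cells with a share of 3 to 4%, 21.5% of those at 5 to 6%, 11.8% at 7 to 8% and 8.81% at 9% or more, at median depths between 5068 and 5805.5 UMIs over all bins. DNA was not measured, and the part of chromosome 5 share in the differences between members and zero cells was not tested. With zero cells weighted to the members' distribution of this share, 67 genes were 1.5-fold higher and 16 lower, and the 15 genes with the highest ratios ranged from 1.64 to 4.09, with Dusp1 at 2.04.

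**Figure D5:**
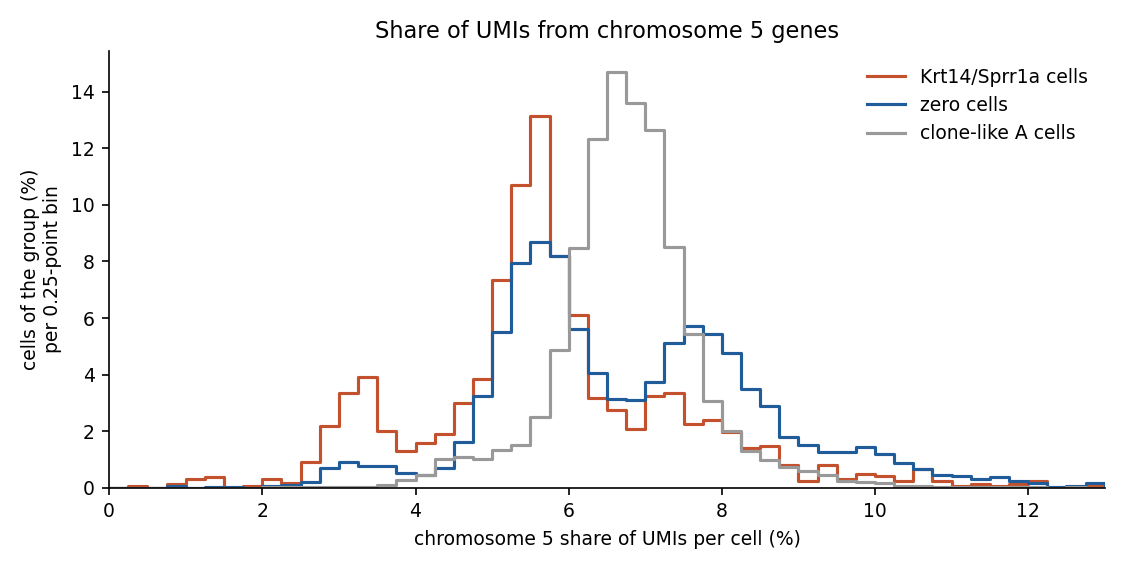
Percent of the cells of each group (vertical axis, per 0.25-point bin) by the share of the cell's UMIs from chromosome 5 genes (horizontal axis, percent). Members and zero cells both have a peak between 3 and 4%, which holds a larger percent of members, and few A cells lie there. A smaller percent of members than of zero cells lies near 8%.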

How the data were processed

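Single cells of 1 pool of clones 76 and 84 were read with 3' v4 droplet chemistry. The authors deposited whole-number UMI counts per gene and barcode, without normalization; Cell Ranger 8.0.1 and build GRCm39 are named in the submitters' processing notes, and the annotation and barcode filter are not given in the sources used here. A second sample, of 5 clones, was not analysed here. The library held 116505698 UMIs in 22178 barcodes and 33696 features.

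Cells were filtered and classed by the rule in the opening. Each cell was then thinned at random to 2000 UMIs, counts were summed per group, and genes reaching 20 CPM in members or zero cells were compared without a test, as ratios with 95% exact conditional intervals. Levels have exact Poisson and shares exact Clopper-Pearson intervals. Scrublet (scanpy 1.11.5, doublet rate set to 0.08) marked doublets, which were kept, and scanpy's gene-list scores gave phases. Python 3.11.15, numpy 2.4.6, scipy 1.17.1 and pandas 2.3.3 were used. Chromosomes and gene order came from GENCODE M21, matched by identifier for 31961 features. Promoters came from RefSeq on GRCm38.p6, which is not the build of the counts. No coordinate of a count was used.

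Named genes were the 15 highest and 12 lowest ratios and, in each of 27 lists (388 entries, 384 found), the 3 most abundant genes and any past 1.5-fold. Maff, Fosl2, Fosb, Hmox1, Btc and Krt7 fall outside this rule and were named after their values were seen. The cells, lists and rules were chosen with earlier results of these data known. On simulated data for members over zero cells, drawn over 33696 features, 100% of 200 genes changed 2-fold passed 1.5-fold and 6 of 5914 unchanged genes (0.1015%) did. The changed genes were drawn from levels above the 20 CPM minimum, and the simulated cells of a group shared 1 profile. These rates thus do not carry over to genes of lower level or uneven spread among cells, such as most of the 15 highest. Alternatives were other thinning depths, none, weighting by depth, membership rules, cell filters, level minimums and doublet removal.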

Additional observations from a re-analysis of the deposited data

Results flagged for a closer look

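Transcripts of the 2 genes also appeared in cells outside the comparison. The 4609 cells in neither class held 1491 Krt14 and Sprr1a UMIs (66.2 CPM), and 229 of them (4.97%, 4.36 to 5.64%) had at least 2, against 1.01% of A cells. Scrublet marked 424 of these 4609 cells (9.20%) as doublets. At least 1 UMI of the A genes and 1 of the B genes was counted in 785 of the 4609 (17.0%), so most did not mix the 2 sets. The 817 barcodes removed by the cell filter held 49 such UMIs (52.1 CPM), and 11 of them (1.35%, 0.674 to 2.40%) had at least 2.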

How the results depend on the processing

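The ratios of 97 named genes were recomputed under 11 alternatives. Of these 1067 ratios, 893 stayed within the interval of the reported value, 173 moved beyond it and 1 crossed 1: Atf3, at 0.994 with members called on Krt14 alone. The 15 genes with the highest ratios, of which 13 reached 20 CPM through the members alone, were past 1.5-fold in each. They were picked as the highest ratios and the alternatives reuse largely the same cells, so this is a description and not a test of them. At a membership threshold of 4 Tff1 reached 11.01, Psca 6.36 and Aldh1a1 5.63. The count of higher genes, 92, ran from 65 to 122 under thinning to 3000 UMIs, no thinning, depth weighting, doublet removal, a strict filter, members by Krt14 alone and stricter B cells. It was 298 with membership called after thinning, 355 at a threshold of 4, 239 with Sprr1a alone, 186 at a minimum of 10 CPM and 10 at 100 CPM. The count of lower genes, 33, was less stable: 18 at 3000 UMIs, 8 without thinning, 187 with membership after thinning, 256 at a threshold of 4, 91 with Krt14 alone, 150 with Sprr1a alone, 79 with stricter B cells, 94 at 10 CPM and 5 at 100 CPM. Chosen after seeing the data, weighting by chromosome 5 share gave 67 higher and 16 lower genes, and leaving out that chromosome, which tests fewer genes, gave 88 and 13. Asking 20 CPM in the mean of both groups, also chosen after seeing the data, gave 68 and 26. The chromosome 5 median stayed between -0.28 and -0.20 in 10 alternatives and was -0.01 under that weighting, which equalizes the share. The share of B cells that were members was 19.5% under the strict filter, 10.5% at a threshold of 3, 6.62% at 4, 6.08% after thinning and 22.9% among stricter B cells, and thinning lowered the share with both genes to 7.95%. Phases of members were G1 26.8%, S 22.1% and G2/M 51.1% at 3000 UMIs, and 28.1, 21.2 and 50.7% without thinning. The cause of these shifts was not tested. No paired analysis was possible because all cells came from 1 library. Limits are the single library, few UMIs per cell, no cell-to-clone map and a chromosome 5 share that differs between the groups, and differences in genes under 20 CPM were not assessed beyond those named.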
